A study of Yarrowia lipolytica with 35 samples.

Results

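Transcripts of 6 genes of nitrogen metabolism were followed through all 12 conditions of a transcriptome study of the oleaginous yeast Yarrowia lipolytica. They are GLN1 (YALI0F00506g), GLT1 (YALI0B19998g), GDH1 (YALI0F17820g), GDH2 (YALI0E09603g), AMD1 (YALI0E11495g) and GZF1 (YALI0D20482g). The genes were chosen by locus tag for their known roles and by no rule on a measured value, though earlier results of these data were known. They are 6 of the 7132 genes in the count table. The symbol GZF1 is given in the deposited log2 table, whereas the other 5 names are published names that the count table does not carry.

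In yeasts, ammonium enters metabolism by 2 routes. NADP-linked glutamate dehydrogenase, encoded by GDH1, joins ammonium to 2-oxoglutarate to give glutamate. Glutamine synthetase (GLN1) adds a further ammonium to glutamate, and glutamate synthase (GLT1) returns the amide nitrogen of glutamine to 2-oxoglutarate. NAD-linked glutamate dehydrogenase (GDH2) works mainly in the opposite direction and releases ammonium from glutamate. AMP deaminase (AMD1) converts AMP to IMP and ammonium, and in oleaginous yeasts its activation on nitrogen depletion is part of the textbook account of citrate and lipid accumulation. GATA zinc finger factors, the family to which GZF1 belongs, include the regulators of nitrogen catabolite genes in Saccharomyces cerevisiae.

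RNA was sequenced from 35 bioreactor cultures of 2 strains, DSM-3286 and DSM-21175. The labels give no genotype for either strain and do not state whether each is a single clone. Each strain was grown on glycerol or on glucose as the only carbon source. Growth phase was sampled at pH 5.5 alone, at 8 h for glycerol cultures and 12 h for glucose cultures, and the stationary phase, in which nitrogen was limiting, after 32 h at pH 5.5 and at pH 3.5. A group held 3 libraries, which the submitters call biological triplicates. The exception, with 2, was DSM-3286 at 32 h and pH 5.5 on glucose. Carbon source and sampling hour cannot be told apart in growth phase, and phase, sampling hour and nitrogen supply cannot be told apart at all.

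The libraries held between 6.7 and 25.7 megareads counted on genes (median 12.55). All 6 genes passed the filter on low counts, and 6537 genes were tested together. A gene was called where its Benjamini-Hochberg adjusted p over these 6537 genes was under 0.05 in edgeR's quasi-likelihood test. No pair of replicates agreed to within counting noise, so each library was counted once. Among the DSM-21175 libraries, 5 stood apart, their Pearson r with the other replicates being lower than the r among those by over 0.005. These were growth replicate 2 on glycerol, growth replicate 3 on glucose, and replicate 3 of the stationary groups on glycerol at pH 5.5, on glucose at pH 5.5 and on glycerol at pH 3.5. Values without these 5 libraries are given where they change a call of a simple comparison in either strain, and beside the larger changes in DSM-21175. Of the tests of differences between changes, 11 more were called without them. Without them 37 of the 174 tests on the 6 genes newly passed the threshold and 2 no longer did. They were picked from these data for disagreeing with their replicates, so leaving them out lowers the estimated spread by selection. For comparisons that involve DSM-21175 the adjusted p-values without them are therefore too small. Calls gained in this way show dependence on these libraries and are not support for a change. A call kept in this way does not offset its loss in another fit. All groups share 1 estimate of the spread, so comparisons within DSM-3286, which hold none of these libraries, moved as well. The first GLN1 test below is of this kind, and its standard error was 0.19 with them and 0.09 without. The largest chi-square per gene between 2 replicates, a measure of their disagreement, was 152.03 in DSM-21175 and 32.91 in DSM-3286. Whether the shared estimate is too large for DSM-3286 was not tested. The share of reads on noncoding genes varied with condition, from 0.0212% in DSM-3286 on glucose at pH 3.5 to 0.187% in the same strain on glycerol at 32 h and pH 5.5 (group means), and its part in the results was not tested.

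Per base of transcript, GLN1 and GDH1 were the most abundant of the 6 transcripts, and AMD1 the least in 10 of the 12 groups, GZF1 being lower in growing DSM-21175. Group means of FPKM (fragments per kilobase of transcript and megaread, from the deposited log2 values) ran from 652 to 2489 for GLN1 and from 318 to 1335 for GDH1. They ran from 56.1 to 358 for GLT1 and from 32 to 144 for GDH2. AMD1 lay between 22.1 and 31.3 FPKM, and GZF1 between 3.77 and 170.3 FPKM. Levels per length depend on the gene models. That of GZF1 holds 717 bases in the count table and 1977 bases in the RefSeq annotation of another strain. The models also differ for GLN1 (1198 bases, effective length 1095, against 1763) and GDH2 (2964 against 3774), whereas GDH1 holds 1377 bases in both. Smaller differences are those of GLT1 (6901 bases, effective length 6360, against 6417) and AMD1 (2610 against 2721). Values below are counts per megaread scaled by TMM (CPM), which compare a gene with itself across libraries.

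How far each gene ranged over the 12 groups differed widely. Group means of AMD1 spanned 0.44 on the log2 scale, a smaller span than that of all but 0.4% of the genes tested. The spans of GLN1 (1.84), GDH1 (2.08) and GDH2 (2.09) lay near the median of all genes tested, 1.93. GLT1 spanned 2.64. GZF1 spanned 5.42, more than 92.2% of genes, from 3.56 CPM in growing DSM-21175 on glycerol to 157 CPM in stationary DSM-3286 on glucose at pH 5.5. With the groups ranked by level, neighbouring groups had overlapping libraries in 11 of 11 steps for AMD1, 9 for GDH1, 7 each for GLN1, GLT1 and GZF1, and 6 for GDH2.

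**Figure D1:**
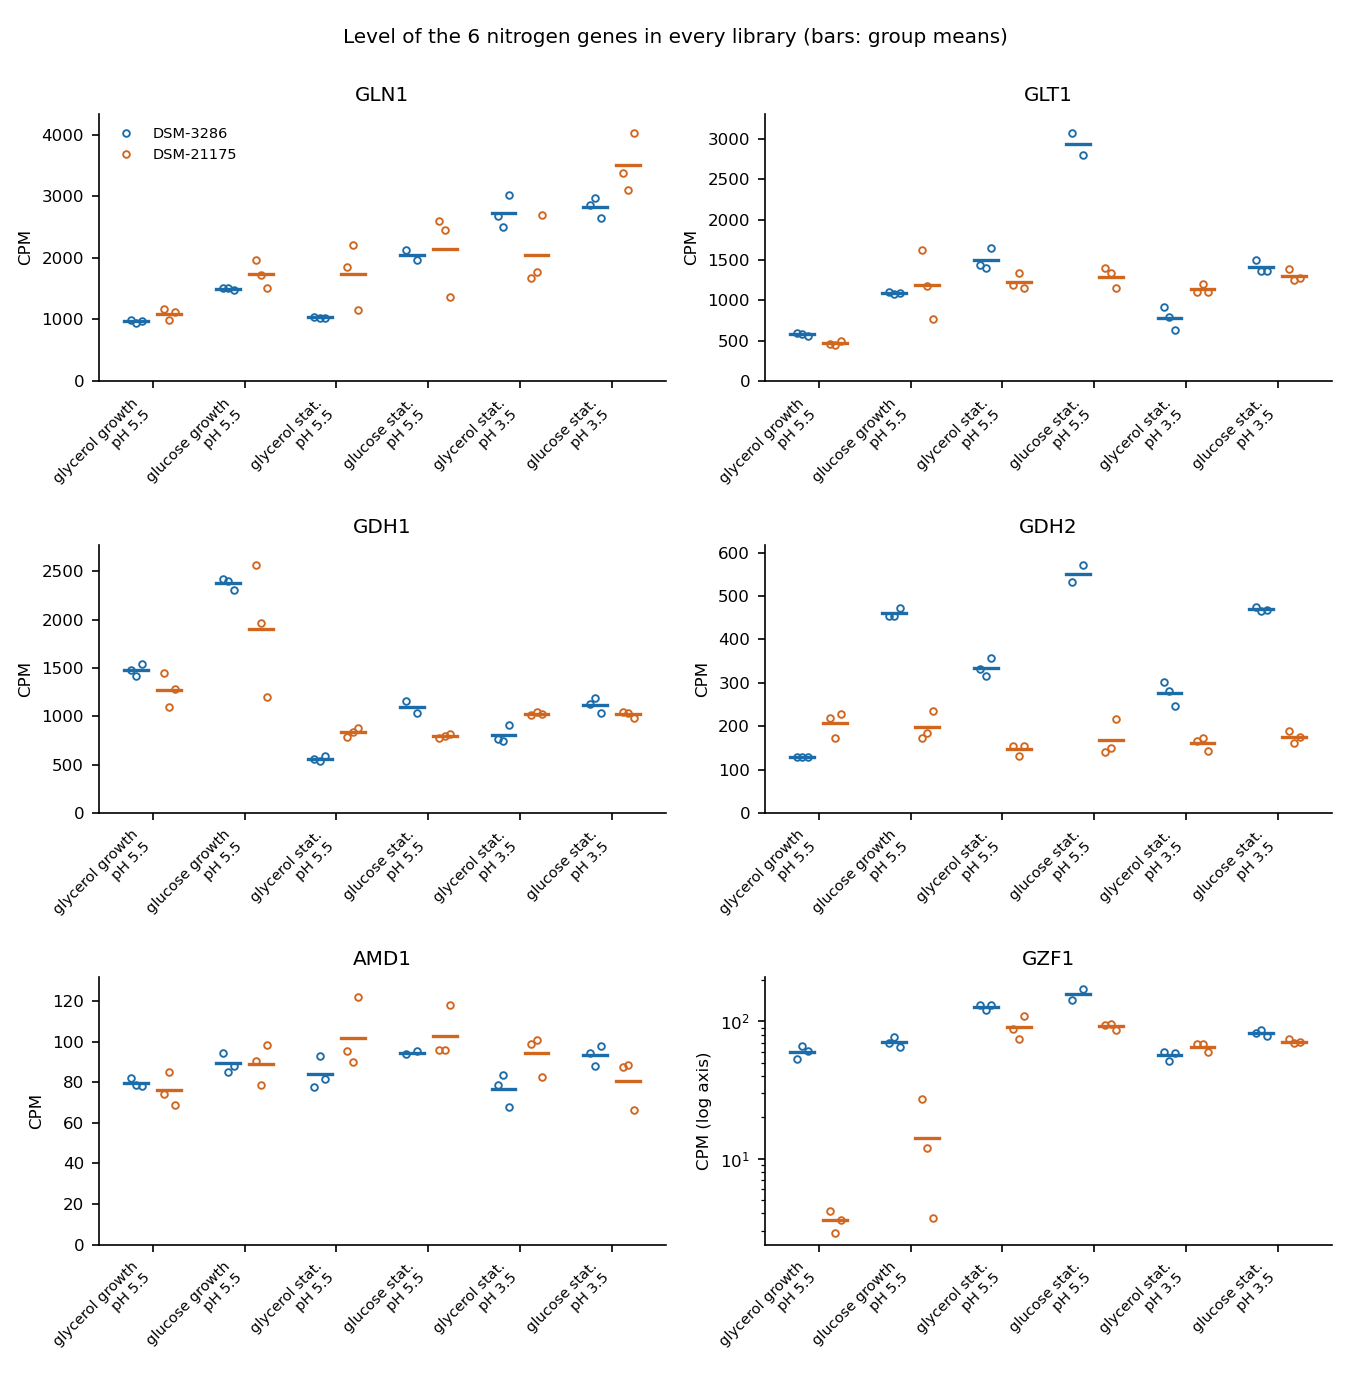
Level of each of the 6 genes in every library, in TMM-scaled counts per megaread (CPM) (y axis, linear from 0 except the log axis for GZF1), by condition (x axis). Circles are libraries and bars group means, blue for DSM-3286 and orange for DSM-21175. GDH2 sits between 128 and 236 CPM in DSM-21175 growth phase and DSM-3286 growth phase on glycerol but at 455 CPM or more in DSM-3286 on glucose, GZF1 is at most 27.1 CPM in growing DSM-21175 and at least 51.7 CPM elsewhere, and AMD1 stays between 66.2 and 122 CPM.

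The first comparison set the stationary phase against growth phase at pH 5.5. GDH1 was lower in stationary phase in both strains on both carbon sources, and GZF1 was higher in all 4 comparisons. GLT1 rose 2.57-fold to 2.69-fold in 3 of the 4. GDH2 moved in opposite directions in the 2 strains on glycerol. Of the 24 tests, 15 passed, 10 with the higher level in stationary phase and 5 with the lower. Each library is a bulk culture, so fewer cells carrying a transcript and less of it per cell cannot be told apart.

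These counts stand against a background in which most genes changed. On glycerol 4 of the 6 genes were called in DSM-3286, where 79.6% of all genes tested were called, and 6 of 6 in DSM-21175, against 76.4%. On glucose 3 of 6 were called in DSM-3286, against 71.9%, and 2 of 6 in DSM-21175, against 72.3%. The share of members called was therefore no higher than that of all genes, except in DSM-21175 on glycerol. The median change of the 6 genes lay between 0.17 and 0.59 on the log2 scale, whereas the median over all genes tested lay between -0.03 and 0.06 in every simple comparison made here. Comparisons that use a group in common, such as stationary cultures at pH 5.5 in the phase and pH comparisons, share its libraries and are not independent.

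GDH1, which makes glutamate from free ammonium, stood at 1475, 1418 and 1542 CPM in the 3 growing DSM-3286 cultures on glycerol and at 556, 537 and 593 CPM at 32 h. On glucose the growing cultures of that strain held 2427, 2402 and 2308 CPM and the 2 stationary ones 1159.6 and 1035 CPM. The groups did not overlap, and the log2 changes were -1.39 ± 0.15 (SE; adjusted p = 1.34e-09) and -1.12 ± 0.17 (adjusted p = 1.25e-06). In DSM-21175 GDH1 went from 1448, 1100.5 and 1283 CPM to 789.7, 839 and 878 CPM on glycerol, a log2 change of -0.61 ± 0.15 (adjusted p = 0.000461). Its growing libraries on glucose spread from 1196 to 2565 CPM, yet all lay above the stationary 772, 801 and 818 CPM (-1.26 ± 0.15; adjusted p = 1.34e-08). Without the 5 libraries that stand apart the DSM-21175 changes were -0.77 and -1.56. The decrease on glycerol was smaller in DSM-21175 than in DSM-3286 by 0.78 ± 0.21 (adjusted p = 0.0025, test of the difference between strains). That test called 51.1% of all genes and 3 of the 6 members on glycerol, and 42% and 3 of the 6 on glucose.

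GLT1 encodes glutamate synthase. In DSM-3286 it went from 596, 581 and 563 CPM to 1439, 1401 and 1643 CPM on glycerol (1.36 ± 0.16; adjusted p = 5.09e-09). On glucose it went from 1109, 1075 and 1089 CPM to 3066 and 2799 CPM (1.43 ± 0.17; adjusted p = 1.64e-08), the highest level of the gene in the study. All stationary libraries of that strain at pH 5.5 lay above all its growing ones. In DSM-21175 on glycerol GLT1 also rose, from 462, 449 and 502 CPM to 1195, 1337 and 1154 CPM (1.38 ± 0.16; adjusted p = 4.32e-09). In that strain on glucose, however, the growing cultures held 1626, 1174 and 770.5 CPM and the stationary ones 1395, 1336 and 1149 CPM, so the groups overlapped (0.12 ± 0.15; adjusted p = 0.497). This value depended on single libraries and ran from -0.11 to 0.41 when each was left out in turn. Without growth replicate 1 the change was 0.41 and was called (adjusted p = 0.0104), whereas without the libraries that stand apart it was -0.07 (adjusted p = 0.637). The change on glucose was smaller in DSM-21175 than in DSM-3286 by 1.31 ± 0.23 on the log2 scale (difference -1.31; adjusted p = 4.59e-05), and by 1.52 without the libraries that stand apart (difference -1.52).

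GLN1, glutamine synthetase, rose by the test in 1 of the 4 comparisons. In DSM-3286 on glycerol it held 999, 946 and 969 CPM in growth phase and 1041, 1028 and 1030.1 CPM at 32 h, groups that did not overlap but differed by 0.09 ± 0.19 on the log2 scale (adjusted p = 0.681). On glucose the same strain held 1510.1, 1514 and 1478 CPM and then 2134 and 1973 CPM (0.45 ± 0.22; adjusted p = 0.0619). Those groups did not overlap either, and without the 5 libraries that stand apart the change was 0.47 and was called (adjusted p = 0.000126). In DSM-21175 on glycerol GLN1 went from 1167, 994 and 1119 CPM to 1858, 2215 and 1155 CPM (0.67 ± 0.2; adjusted p = 0.00284), with stationary replicate 3 inside the growth range. The call was lost without stationary replicate 2 (0.44, adjusted p = 0.0534). It held without the 5 libraries that stand apart (0.81), which does not offset that loss. On glucose in DSM-21175 the growing cultures held 1972, 1719 and 1515 CPM and the stationary ones 2605, 2449 and 1365 CPM (0.3 ± 0.19; adjusted p = 0.165). Without stationary replicate 3 that change was 0.50 and was called (adjusted p = 0.0146), as it was without the libraries that stand apart (0.42; adjusted p = 0.00151).

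GDH2, the glutamate-degrading dehydrogenase, was lowest in growing DSM-3286 on glycerol, at 130.0, 129 and 128 CPM. At 32 h it reached 332, 315 and 358 CPM there (1.38 ± 0.13; adjusted p = 1.23e-10). On glucose the strain held 455, 455 and 473 CPM in growth phase and 532 and 571 CPM at 32 h, a change that did not pass (0.26 ± 0.14; adjusted p = 0.105). Those groups did not overlap, and without the libraries that stand apart the change was 0.28 and was called (adjusted p = 0.00353). In DSM-21175 on glycerol GDH2 went the other way, from 219, 173 and 228 CPM to 154, 132 and 154 CPM (-0.5 ± 0.13; adjusted p = 0.00106; -0.67 without the libraries that stand apart). The 2 strains differed in this change by -1.87 ± 0.18 (adjusted p = 2.04e-09), and by -2.1 without the libraries that stand apart. On glucose in DSM-21175 it held 173, 185 and 236 CPM in growth phase and 141, 150.3 and 216 CPM at 32 h, with overlap (-0.23 ± 0.13; adjusted p = 0.114). That change was called without growth replicate 1 (-0.31; adjusted p = 0.049) and without stationary replicate 3 (-0.49; adjusted p = 0.000927). It was also called without the libraries that stand apart (-0.34; adjusted p = 0.00193). Same-numbered DSM-21175 libraries on glucose deviated together, and in a fit of these libraries with the replicate number as a block the change was -0.25 (adjusted p = 0.0351).

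AMD1, AMP deaminase, was called in 1 of the 4 comparisons. In DSM-21175 on glycerol it went from 74.2, 85.1 and 68.6 CPM to 95.5, 89.9 and 122 CPM (0.43 ± 0.12; adjusted p = 0.00243). The groups did not overlap, but the call was lost without stationary replicate 3, the highest library (0.26; adjusted p = 0.0683). Without all 5 libraries that stand apart, that one included, the change was 0.35 and was called (adjusted p = 0.00775). Since leaving them out lowers the spread by selection, this does not offset that loss. In DSM-3286 the change was 0.08 on either carbon source (SE 0.12 on glycerol and 0.14 on glucose), and in DSM-21175 on glucose it was 0.21 ± 0.12 (adjusted p = 0.118).

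GZF1, the GATA-type factor, had the largest phase changes of the 6 genes in DSM-21175. In DSM-3286 it went from 53.6, 65.9 and 60.5 CPM to 132, 121 and 132 CPM on glycerol (1.09 ± 0.28; adjusted p = 0.00114). On glucose it went from 69.2, 76.3 and 65.6 CPM to 144 and 171 CPM (1.16 ± 0.31; adjusted p = 0.00157). Growing DSM-21175 held far less of this transcript. Its 3 growing libraries on glycerol held 4.18, 2.9 and 3.6 CPM, or 38, 33 and 30 reads, against 88.5, 74.4 and 110.2 CPM at 32 h. The log2 change was 4.69 ± 0.37, a 25.8-fold rise (adjusted p = 1.06e-11), and 4.36 without the libraries that stand apart. On glucose the growing libraries spread from 27.1 over 11.9 to 3.71 CPM, or 305, 162 and 41 reads, and all stationary libraries lay far above them, at 94.4, 95.5 and 86.3 CPM (2.69 ± 0.31; adjusted p = 1.85e-08). Without growth replicate 1 that change was 3.52, and without the libraries that stand apart it was 2.27. The rise was larger in DSM-21175 than in DSM-3286 by 3.59 ± 0.46 on glycerol (adjusted p = 5.26e-07) and by 1.53 ± 0.44 on glucose (adjusted p = 0.00634). Without the libraries that stand apart these differences were 3.21 and 1.09, and without growth replicate 1 the latter was 2.36. In a fit limited to the groups compared the latter was not called (adjusted p = 0.141).

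**Figure D2:**
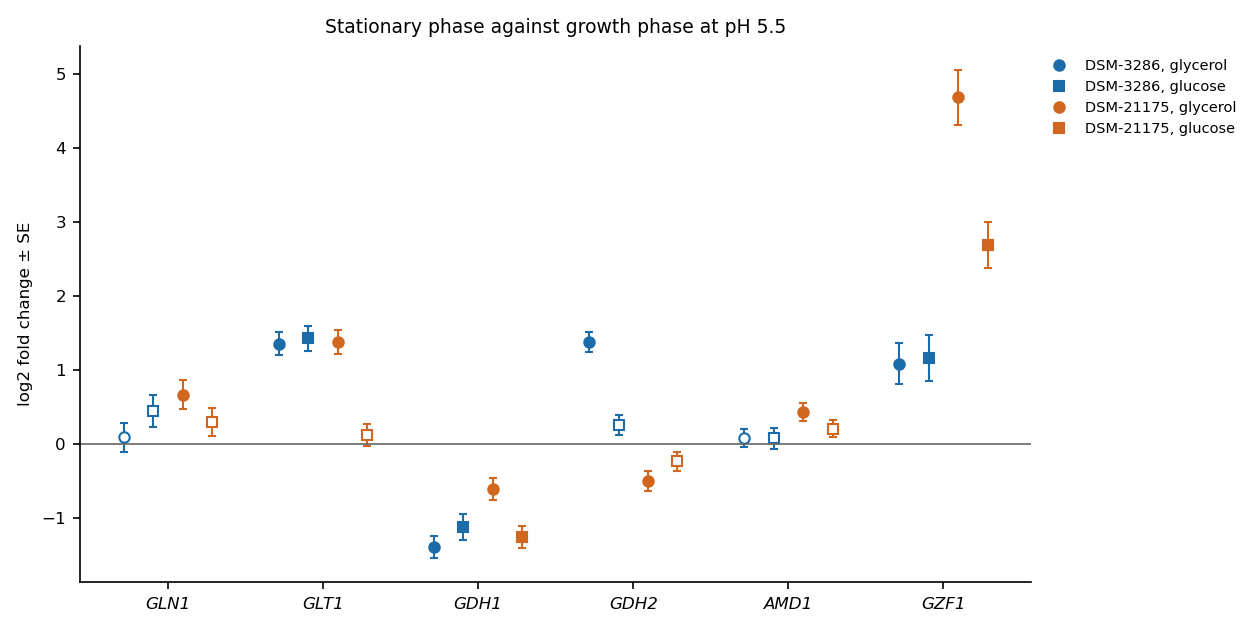
Change from growth phase to the stationary phase at pH 5.5 for each gene (x axis), as log2 fold change with its standard error (y axis), by strain (colour) and carbon source (circles glycerol, squares glucose). Filled symbols passed an adjusted p of 0.05 and open symbols did not. GDH1 lies below 0 in all 4 comparisons, from -1.39 to -0.61, GZF1 above 0 in all 4, from 1.09 to 4.69, and GDH2 on opposite sides of 0 in the 2 strains on glycerol.

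Ratios of these transcripts per length put the same levels side by side. In growing DSM-3286 on glycerol the GDH1 level per length was 24.7 ± 1.13 times that of GDH2 (SD, n = 3). At 32 h and pH 5.5 it was 3.62 ± 0.0403 times (n = 3), and on glucose it went from 11.1 ± 0.533 (n = 3) to 4.3 ± 0.548 (n = 2). In DSM-21175 the ratio was 13.3 ± 1.09 and 12.3 ± 1.35 on glycerol in the 2 phases (n = 3 each). On glucose it went from 21.9 ± 10.6 to 10.5 ± 1.99 in that strain (n = 3 each). Its growing libraries there ranged from 10.9 to 32 and its stationary ones from 8.18 to 11.8, with overlap. The GLN1 to GDH1 ratio per length was 0.828 ± 0.0333 and 0.795 ± 0.011 in growing DSM-3286 on glycerol and glucose (n = 3 each). In stationary cultures of that strain it lay between 2.18 in the lowest and 4.38 in the highest library. No test was made on these ratios, and their size depends on the gene models of GLN1 and GDH2.

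**Figure D3:**
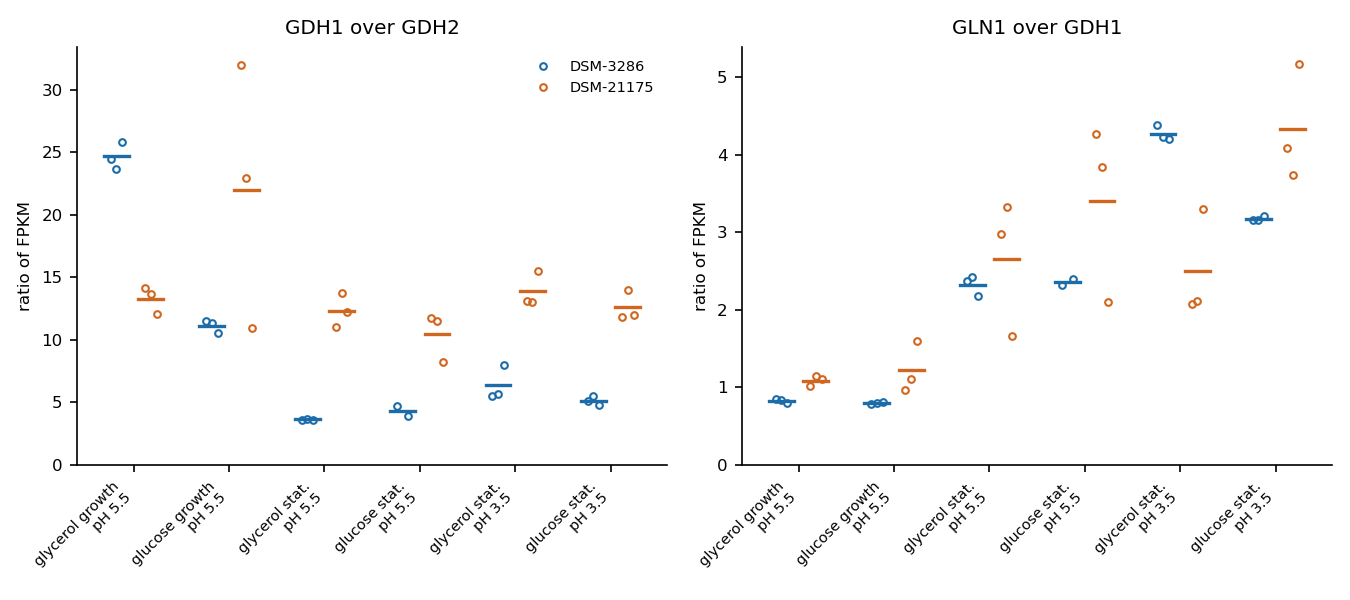
Ratio of transcript levels per length (FPKM, y axes from 0) for GDH1 over GDH2 and for GLN1 over GDH1 in each library (circles) with group means (bars), by condition (x axis) and strain (blue DSM-3286, orange DSM-21175). The GDH1 to GDH2 ratio is 23.6 or more in growing DSM-3286 on glycerol and at most 7.94 in every stationary library of that strain, whereas in DSM-21175 no stationary library is below 8.18. On glucose at pH 5.5 the DSM-21175 libraries range from 10.9 to 32 in growth phase and from 8.18 to 11.8 at 32 h.

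The second comparison set glycerol against glucose. In growth phase GLN1, GLT1 and GDH1 were lower on glycerol in both strains, by 1.5-fold to 2.53-fold, while GDH2 was lower in DSM-3286 alone and GZF1 in DSM-21175 alone by the threshold. Of the 12 tests 8 passed, each with the lower level on glycerol. In DSM-3286 4 of 6 genes were called, against 55.3% of all genes tested, and in DSM-21175 4 of 6, against 46.6%. The median change of the 6 genes was -0.66 in DSM-3286 and -0.62 in DSM-21175.

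GLT1 changed by -0.91 ± 0.15 in DSM-3286 (adjusted p = 1.18e-05) and by -1.34 ± 0.16 in DSM-21175 (adjusted p = 5.06e-08). No glycerol library reached the lowest glucose library in either strain. GLN1 changed by -0.63 ± 0.2 (adjusted p = 0.00768) and -0.67 ± 0.2 (adjusted p = 0.00611), also without overlap. GDH1 changed by -0.69 ± 0.15 in DSM-3286 (adjusted p = 0.000239). In DSM-21175 its change was -0.58 ± 0.15 (adjusted p = 0.00177), but glucose replicate 3, at 1196 CPM, lay inside the glycerol range, and the call was lost without glucose replicate 1 (-0.31; adjusted p = 0.0598). It was also lost in a fit limited to the groups compared (-0.60; adjusted p = 0.136). Without the 5 libraries that stand apart the DSM-21175 changes were -0.71 for GLN1, -1.56 for GLT1 and -0.75 for GDH1, all called. For GDH1 this does not offset the losses.

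The glutamate-degrading GDH2 separated the strains here. In DSM-3286 all glycerol libraries, at 128 to 130.0 CPM, lay below the glucose libraries, at 455 to 473 CPM (-1.84 ± 0.13; adjusted p = 3.16e-12). In DSM-21175 the carbon sources overlapped, at 173 to 228 CPM on glycerol and 173 to 236 CPM on glucose (0.06 ± 0.13; adjusted p = 0.714). Without the libraries that stand apart this change was 0.3 and was called higher on glycerol (adjusted p = 0.00877). The difference between the strains was 1.9 ± 0.18 (adjusted p = 2.49e-08), in a test that called 9.82% of all genes and 2 of the 6 members. Without the same libraries it was 2.17.

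The other member called in that test was GZF1. Its carbon-source change was -0.23 ± 0.28 in DSM-3286 (adjusted p = 0.513) and -2.01 ± 0.38 in DSM-21175 (adjusted p = 0.000104), where the lowest glucose library, at 3.71 CPM, lay inside the glycerol range. The difference was -1.78 ± 0.48 (adjusted p = 0.0159). It rested on 1 library: without glucose growth replicate 1 of DSM-21175, at 27.1 CPM, the change in that strain was -1.18 (adjusted p = 0.00119) and the difference -0.95 (adjusted p = 0.0726). With limma on the deposited log2 values the difference was -1.16 (adjusted p = 0.103). In fits limited to the groups compared, neither was called (adjusted p = 0.0584 for the change and 0.186 for the difference). AMD1 did not pass in either strain, at -0.16 ± 0.12 and -0.23 ± 0.12.

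At 32 h most carbon-source calls were in DSM-3286. At pH 5.5 GLN1, GLT1, GDH1 and GDH2 were lower on glycerol by 1.65-fold to 1.99-fold, 4 of 6 genes called against 35.8% of all genes. At pH 3.5 GLT1, GDH1 and GDH2 were lower, 3 of 6 called against 42.7%. In DSM-21175 at pH 5.5 edgeR called 0 of 6, against 11.9% of all genes. There 0 of 6 had an unadjusted p under 0.05, and neither DESeq2 nor limma called any. At pH 3.5 in that strain 1 of 6 was called, against 15.7%.

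In DSM-3286 at pH 5.5 the log2 changes were -0.99 ± 0.21 for GLN1, -0.97 ± 0.17 for GLT1, -0.96 ± 0.16 for GDH1 and -0.72 ± 0.14 for GDH2. Their adjusted p-values lay between 3.58e-05 and 0.00069, and no library of one carbon source overlapped the other. At pH 3.5 GLT1 changed by -0.85 ± 0.15 (adjusted p = 6.53e-05) and GDH2 by -0.77 ± 0.13 (adjusted p = 2.33e-05). GDH1 changed by -0.47 ± 0.15 (adjusted p = 0.011), a call lost without glycerol replicate 2 (-0.42; adjusted p = 0.0506). GLN1 no longer differed by the test at pH 3.5 in that strain, with 2675, 2503 and 3024 CPM on glycerol and 2853, 2975 and 2641 CPM on glucose (-0.05 ± 0.19; adjusted p = 0.871). AMD1 (-0.29; adjusted p = 0.0109) and GZF1 (-0.54; adjusted p = 0.00239) were also called lower on glycerol there without the libraries that stand apart.

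GLN1 was the member called in DSM-21175 at pH 3.5. It held 1673, 1763 and 2689 CPM on glycerol and 3385, 3101 and 4020.0 CPM on glucose (-0.78 ± 0.2; adjusted p = 0.00697). The groups did not overlap, but the call was lost without glycerol replicate 1 (adjusted p = 0.0554), glycerol replicate 2 (adjusted p = 0.0568) or glucose replicate 3 (adjusted p = 0.0521), and in a fit limited to the groups compared (adjusted p = 0.0687). Without the 5 libraries that stand apart the change was -1.03 and was called, which does not offset these losses. At pH 5.5 in DSM-21175 the GLN1 change was -0.3 ± 0.19. It was called without glucose replicate 3 (-0.55; adjusted p = 0.0474) and without the libraries that stand apart (-0.32; adjusted p = 0.0451). AMD1 at pH 3.5 in that strain changed by 0.22 ± 0.12 (adjusted p = 0.225), and by 0.3 without those libraries, which was called (adjusted p = 0.0202).

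Differences between the strains in this comparison were tested directly. At pH 5.5 the change differed for GLT1 by 0.9 ± 0.23 (adjusted p = 0.00624) and for GDH1 by 1.03 ± 0.22 (adjusted p = 0.00134), 2 of 6 members against 19.3% of all genes. At pH 3.5 it differed for GLN1 (-0.73), GLT1 (0.65), GDH2 (0.64) and AMD1 (0.5), 4 of 6 against 30.4%. The carbon-source change also differed between phases at pH 5.5. In DSM-3286 this held for GDH2 (1.12 ± 0.19; adjusted p = 3.33e-05), 1 of 6 members against 44.7% of all genes. In DSM-21175 it held for GLT1 (1.26 ± 0.22; adjusted p = 5.7e-05), GDH1 (0.65 ± 0.21; adjusted p = 0.018) and GZF1 (1.99 ± 0.48; adjusted p = 0.00218), 3 of 6 against 30.1%.

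The third comparison set pH 3.5 against pH 5.5 at 32 h. GLN1 was 2.65-fold higher at the acid pH in DSM-3286 on glycerol, while GLT1 and GZF1 were 1.91-fold to 2.26-fold lower in that strain on both carbon sources. Of the 24 tests 8 passed, 3 higher and 5 lower at pH 3.5. In DSM-3286 4 of 6 were called on glycerol, against 66.2% of all genes, and 2 of 6 on glucose, against 46.3%. In DSM-21175 0 of 6 were called on glycerol, against 28.7%, and 2 of 6 on glucose, against 27.3%. For the 0 of 6, no member had an unadjusted p under 0.05, and neither DESeq2 nor limma called any. Without the 5 libraries that stand apart 15 of the 24 tests passed, the added ones at log2 changes between -0.41 and 0.45.

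GLN1 and GLT1, the 2 enzymes of the glutamine cycle, moved in opposite directions in DSM-3286 on glycerol. GLN1 went from 1041, 1028 and 1030.1 CPM at pH 5.5 to 2675, 2503 and 3024 CPM at pH 3.5 (1.4 ± 0.2; adjusted p = 5.65e-07). GLT1 went from 1439, 1401 and 1643 CPM to 923, 797 and 629 CPM (-0.93 ± 0.16; adjusted p = 6.33e-06). Neither pair of groups overlapped, and the GLN1 to GLT1 ratio per length was 4.05 ± 0.35 at pH 5.5 and 21 ± 6.08 at pH 3.5 (SD, n = 3 each). The size of this ratio depends on the gene models. On glucose GLT1 went from 3066 and 2799 CPM to 1494, 1367 and 1363 CPM (-1.06 ± 0.17; adjusted p = 1.11e-05). The GLN1 change on glucose did not pass (0.46 ± 0.22; adjusted p = 0.0895), but was called without the libraries that stand apart (0.45; adjusted p = 0.000443).

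In DSM-21175 GLT1 held 1099.7, 1208 and 1097 CPM on glycerol and 1386, 1251 and 1275 CPM on glucose at pH 3.5, and neither pH change passed (-0.11 ± 0.15 and 0.01 ± 0.15). The pH change of GLT1 differed between the strains by 0.82 ± 0.22 on glycerol (adjusted p = 0.00359) and by 1.07 ± 0.23 on glucose (adjusted p = 0.00185). That of GLN1 differed by -1.18 ± 0.28 on glycerol (adjusted p = 0.00124). These tests called 2 of 6 members on glycerol, against 41.6% of all genes, and 1 of 6 on glucose, against 16.3%. In DSM-21175 GLN1 changed by 0.23 ± 0.19 on glycerol (adjusted p = 0.404), a value that was -0.24 (adjusted p = 0.0954) without the libraries that stand apart. On glucose it changed by 0.71 ± 0.2 (adjusted p = 0.00868). That call was lost without replicate 3 of either pH (0.47 and 0.60, adjusted p = 0.0647 and 0.055) and in a fit limited to the groups compared (adjusted p = 0.0972). Without the libraries that stand apart the change was 0.47 and was called, which does not offset these losses.

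Of the dehydrogenases, GDH1 rose in DSM-3286 on glycerol, from 556, 537 and 593 CPM to 768, 745 and 907 CPM (0.52 ± 0.15; adjusted p = 0.00285). In DSM-21175 on glucose its change of 0.36 ± 0.15 (adjusted p = 0.0692) was called by DESeq2 (0.38; adjusted p = 0.0467). Without the libraries that stand apart GDH1 was called higher at pH 3.5 in DSM-21175 on both carbon sources (0.35 on glycerol and 0.38 on glucose), and so was GDH2 (0.26 and 0.27). In the fit of all libraries GDH2 passed in none of the 4 tests with edgeR, at changes between -0.28 and 0.13. Its test in DSM-3286 on glycerol had an adjusted p of 0.0572 and was called without replicate 1 of pH 3.5 (-0.35; adjusted p = 0.0394) and by DESeq2 (-0.29; adjusted p = 0.0443). Without the libraries that stand apart GDH2 was called lower at pH 3.5 in that strain on glycerol (-0.29; adjusted p = 0.00121) and on glucose (-0.24; adjusted p = 0.0162). AMD1 was lower at pH 3.5 in DSM-21175 on glucose, from 96, 96 and 118 CPM to 87.3, 88.5 and 66.2 CPM (-0.36 ± 0.12; adjusted p = 0.0302). That call was lost without replicate 3 of either pH (adjusted p = 0.194 and 0.213), in a fit limited to the groups compared (adjusted p = 0.116), and without the libraries that stand apart (-0.24; adjusted p = 0.0683).

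GZF1 was lower at pH 3.5 in DSM-3286. On glycerol it held 59.6, 51.7 and 58.6 CPM, against 132, 121 and 132 CPM at pH 5.5 (-1.18 ± 0.29; adjusted p = 0.000792). On glucose it held 82.1, 86.8 and 77.8 CPM, against 144 and 171 CPM (-0.94 ± 0.31; adjusted p = 0.0144), a call lost without pH 5.5 replicate 3 (-0.81; adjusted p = 0.109), which leaves a single library at that pH. In DSM-21175 it held 68.1, 68.5 and 59.6 CPM on glycerol and 74.1, 69.1 and 70.6 CPM on glucose at pH 3.5. Neither change passed (-0.48 ± 0.28 and -0.37 ± 0.28), although the groups did not overlap and that on glucose was called without the libraries that stand apart (-0.41; adjusted p = 0.043), and the difference between the strains did not pass either (0.7 ± 0.4 on glycerol and 0.57 ± 0.42 on glucose; adjusted p = 0.165 and 0.38). Without the libraries that stand apart the difference on glycerol was 0.94 and was called (adjusted p = 0.000976), and in fits limited to the groups compared both were called (adjusted p = 0.00856 and 0.0107). The noncoding share of reads in DSM-3286 on glycerol was 0.187% at pH 5.5 and 0.0326% at pH 3.5, and its part in these changes was not tested.

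**Figure D4:**
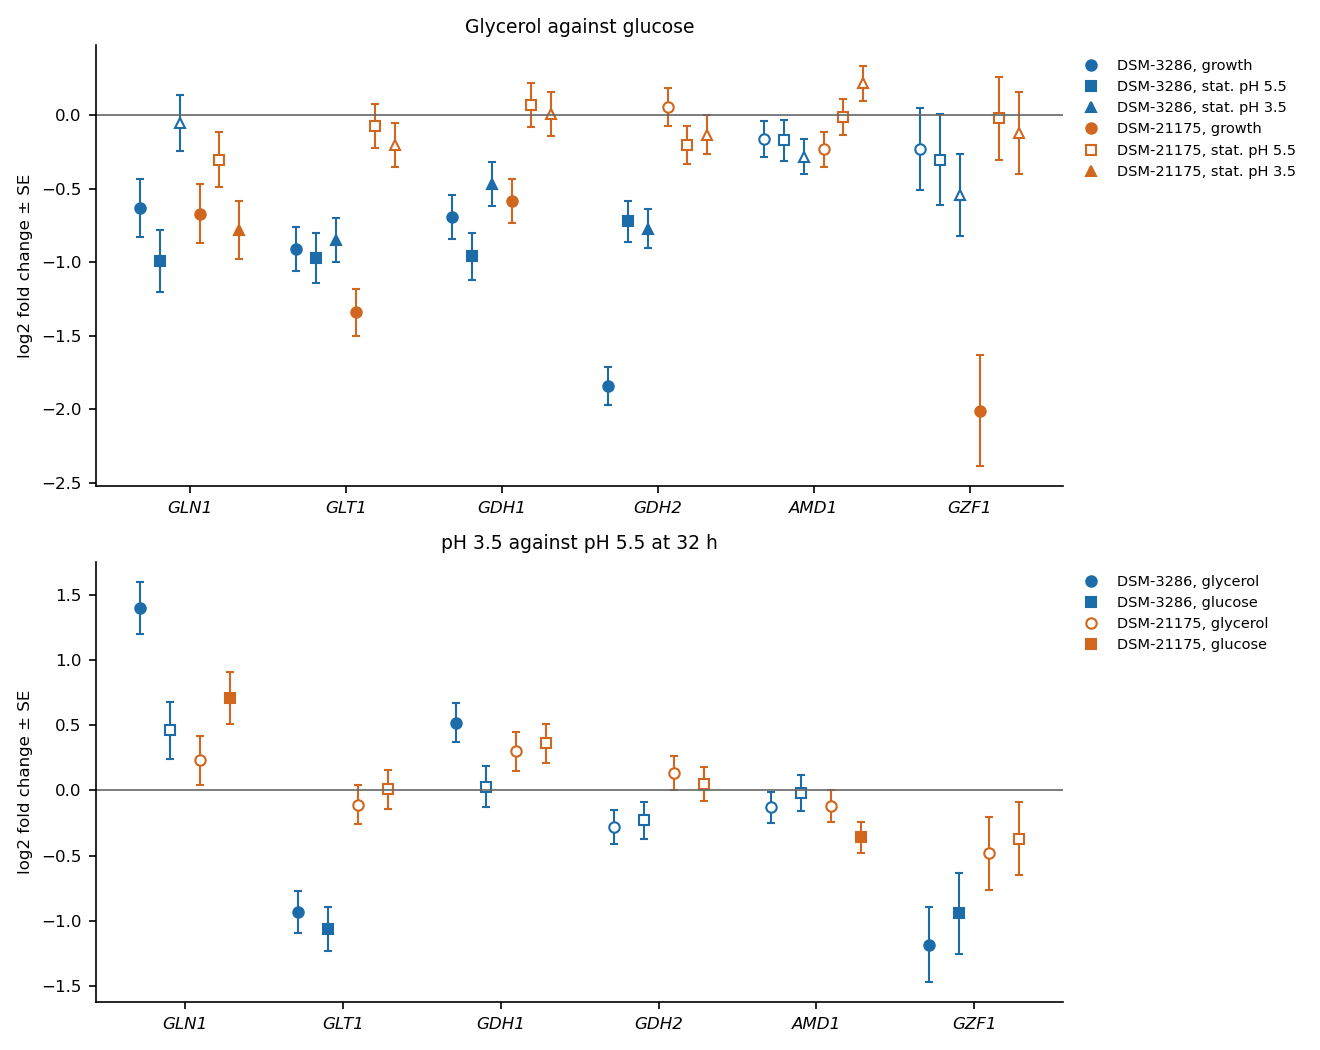
Change on glycerol against glucose (upper panel) and at pH 3.5 against pH 5.5 at 32 h (lower panel) for each gene, as log2 fold change with its standard error. Blue is DSM-3286 and orange DSM-21175, with symbol shapes for the conditions in the legends, filled in the panels where the adjusted p was under 0.05 (the fill of a legend symbol carries no meaning). GDH2 in growth phase lies at -1.84 in DSM-3286 and at 0.06 in DSM-21175, and GLN1 and GLT1 on glycerol lie at 1.4 and -0.93 with acid pH in DSM-3286.

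The fourth comparison set DSM-21175 against DSM-3286 in each of the 6 conditions. GDH2 was called in all 6, lower in DSM-21175 in 5 and higher in growing cultures on glycerol. GZF1 was 17-fold lower in growing DSM-21175 on glycerol and 4.95-fold lower on glucose. Of the 36 tests 17 passed, 7 higher and 10 lower in DSM-21175. On glycerol 2 of 6 were called in growth phase, 4 of 6 at 32 h and pH 5.5, and 4 of 6 at pH 3.5, against 48.9%, 69.7% and 64% of all genes. On glucose the counts were 2, 4 and 1 of 6, against 56.6%, 62.8% and 61.3%.

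For GDH2 the lower level of DSM-21175 was largest on glucose. Its 3 libraries at 32 h and pH 5.5 held 141, 150.3 and 216 CPM against 532 and 571 CPM in DSM-3286 (-1.71 ± 0.14; adjusted p = 3.51e-11). At pH 3.5 they held 189, 161 and 176 CPM against 475, 466 and 468 CPM (-1.42 ± 0.13; adjusted p = 2.68e-10), and in growth phase the change was -1.22 ± 0.13 (adjusted p = 6.68e-09). The strains did not overlap in any of these 3 conditions. On glycerol at 32 h the differences were -1.19 ± 0.13 at pH 5.5 (adjusted p = 4.85e-09) and -0.78 ± 0.13 at pH 3.5 (adjusted p = 6e-06), the latter from 166, 173 and 142 CPM against 301, 281 and 246 CPM. In growth phase on glycerol DSM-21175 was higher (0.68 ± 0.13; adjusted p = 7.8e-05), in the condition where DSM-3286 had its lowest level. Without the libraries that stand apart the 6 differences ran from -1.96 to 0.82 and all 6 remained called. Over all its 18 libraries DSM-21175 held between 132 and 236 CPM of GDH2, and neighbouring groups in the order of its levels overlapped.

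For GZF1 the strain difference in growth phase was -4.09 ± 0.37 on glycerol (adjusted p = 1.05e-09), from 2.9 to 4.18 CPM against 53.6 to 65.9 CPM. On glucose it was -2.31 ± 0.31 (adjusted p = 6.6e-07), from 3.71 to 27.1 CPM against 65.6 to 76.3 CPM. Without DSM-21175 growth replicate 1 the glucose difference was -3.14, and without the libraries that stand apart the 2 differences were -3.91 and -1.86. At 32 h on glucose at pH 5.5 the difference was -0.77 ± 0.31 (adjusted p = 0.0305), a call lost without either DSM-3286 library (adjusted p = 0.0524 and 0.168) and without DSM-21175 replicate 3 (adjusted p = 0.0517), and with limma on the deposited values (adjusted p = 0.0744). The other 3 stationary differences, from -0.49 to 0.21, did not pass, though that on glycerol at pH 5.5 was -0.7 and called without the libraries that stand apart (adjusted p = 0.000344).

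Of the biosynthetic genes, GDH1 was called in 3 of the 6 strain comparisons, GLT1 in 2 and GLN1 in 1. GLT1 in stationary cultures on glucose at pH 5.5 was lower in DSM-21175 (-1.18 ± 0.17; adjusted p = 7.98e-07), and on glycerol at pH 3.5 it was higher (0.54 ± 0.15; adjusted p = 0.00335). GLN1 was higher in DSM-21175 on glycerol at 32 h and pH 5.5 (0.75 ± 0.2; adjusted p = 0.00125). At pH 3.5 its difference was -0.42 ± 0.19 (adjusted p = 0.0605), which passed without DSM-21175 replicate 3 (-0.67; adjusted p = 0.00509) and without the libraries that stand apart (-0.7; adjusted p = 7.02e-07). Without those libraries GLN1 was called in all 6 conditions, the other 5 with the higher level in DSM-21175 (0.26 to 0.93). GLT1 was then also called on glycerol at 32 h and pH 5.5 (-0.29; adjusted p = 0.0375) and on glucose in growth phase (0.37; adjusted p = 0.0101).

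GDH1 was higher in stationary DSM-21175 on glycerol at pH 5.5 (0.57 ± 0.15; adjusted p = 0.00117). At pH 3.5 it was higher by 0.35 ± 0.15 (adjusted p = 0.0389), a call lost in 5 of the 6 fits that left out 1 of these libraries, all but DSM-3286 replicate 3. It was lower on glucose at pH 5.5 (-0.46 ± 0.16; adjusted p = 0.0151), a call lost without DSM-3286 replicate 1 (-0.38; adjusted p = 0.126). In growth phase on glucose its difference of -0.32 ± 0.15 (adjusted p = 0.0664) was called without DSM-21175 replicate 1 (-0.59; adjusted p = 0.0006), but was -0.06 (adjusted p = 0.645) without the libraries that stand apart. AMD1 was higher in stationary DSM-21175 on glycerol by 0.29 ± 0.12 at both pH values (adjusted p = 0.0401 at pH 5.5 and 0.0379 at pH 3.5), with overlapping libraries. The call at pH 5.5 was lost without replicate 1 or 3 of either strain, and that at pH 3.5 without replicate 1 or 3 of DSM-3286 or replicate 1 or 2 of DSM-21175. That at pH 5.5 was lost also without the libraries that stand apart (0.09; adjusted p = 0.451). On glucose at pH 3.5 AMD1 differed by -0.21 ± 0.12 (adjusted p = 0.135), and without those libraries by -0.24, which was called (adjusted p = 0.0212).

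**Figure D5:**
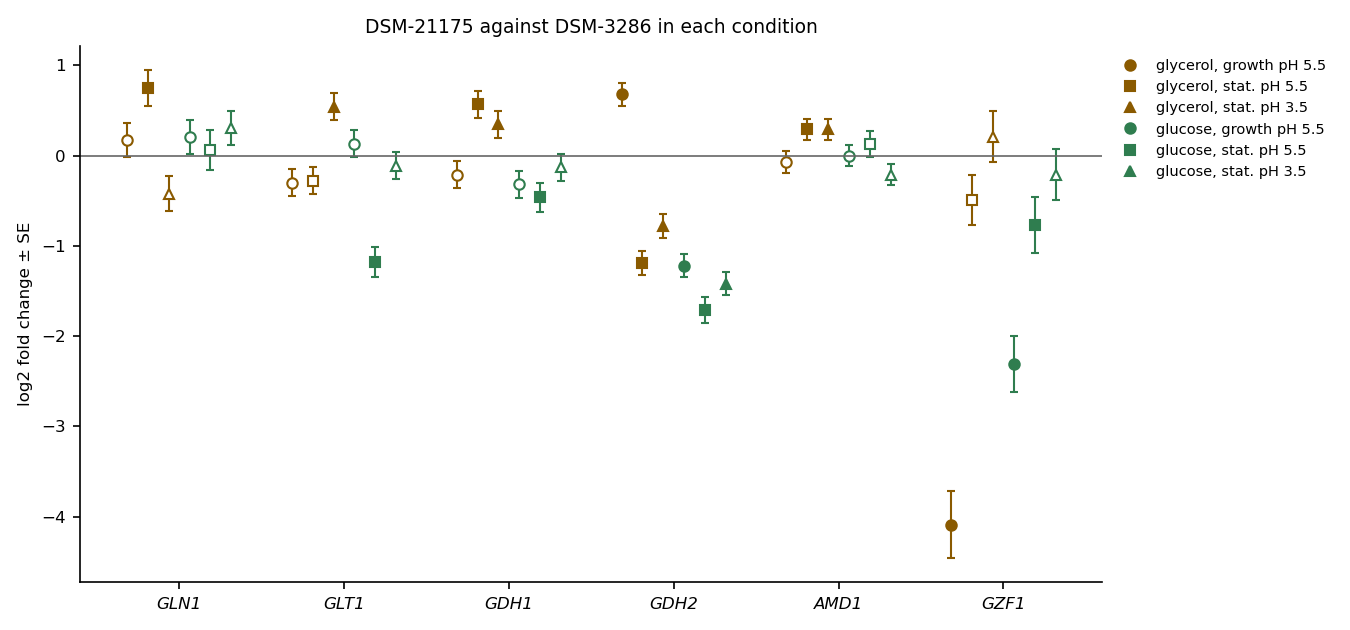
Difference of DSM-21175 from DSM-3286 for each gene in the 6 conditions, as log2 fold change with its standard error (y axis). Brown marks glycerol and green glucose, circles growth phase, squares 32 h at pH 5.5 and triangles 32 h at pH 3.5, filled where the adjusted p was under 0.05. GDH2 is below 0 in 5 conditions and at 0.68 in growth phase on glycerol, and the GZF1 differences of -4.09 and -2.31 are those of growth phase.

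A list of regulators of nitrogen genes by symbol found 9 further genes in the log2 table, which names other genes of amino acid use as well: the GATA-type factors GZF2, GZF3, GZF4 and GZF5, and DAL81, UGA3, PUT3, GCN4 and STP3. In Saccharomyces cerevisiae the genes named DAL81, UGA3 and PUT3 regulate the use of allantoin, 4-aminobutyrate and proline, and GCN4 regulates amino acid biosynthesis. Between phases 27 of their 36 tests passed, 21 higher and 6 lower in stationary phase, with 7 of 9 called in DSM-3286 on each carbon source and in DSM-21175 on glycerol, and 6 of 9 in DSM-21175 on glucose. These counts lie near the shares of all genes called in the same comparisons, 71.9% to 79.6%. GZF3, GZF5, GZF2 and DAL81 were higher in all 4. In DSM-3286 on glycerol GZF3 rose from 65.7, 76.9 and 71.7 CPM to 297, 287 and 316 CPM (2.07 ± 0.13; adjusted p = 1.47e-14). GZF5 rose there from 13.4, 13.5 and 16 CPM to 80.5, 84.1 and 80.7 CPM (2.51 ± 0.12; adjusted p = 4.73e-17). GZF4 was lower in 3 of the 4, with changes of -0.56 to -0.34 where called.

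Across the other comparisons of these 9 genes, 6 of 18 tests between carbon sources in growth phase passed, where 46.6% to 55.3% of all genes were called, and 12 of 36 at 32 h (11.9% to 42.7%). With pH 20 of 36 passed, 4 higher and 16 lower at pH 3.5 (27.3% to 66.2% of all genes called), and between strains 24 of 54 (48.9% to 69.7%). GZF3 was lower at pH 3.5 in all 4 comparisons, with changes of -1.11 and -1.3 in DSM-3286 and -0.64 and -0.54 in DSM-21175. In growing cultures GZF3 was also lower in DSM-21175 than in DSM-3286, with differences of -0.7 ± 0.13 on glycerol (adjusted p = 5.47e-05) and -0.97 ± 0.13 on glucose (adjusted p = 3.32e-07). GZF2 was higher in DSM-21175 on glycerol at pH 3.5, at 97.4, 102 and 76.2 CPM against 43.9, 33.6 and 26.7 CPM (1.41 ± 0.16; adjusted p = 1.28e-08). STP3 was higher on glycerol in DSM-3286 in growth phase (1.62 ± 0.22; adjusted p = 4.86e-07) and higher at pH 3.5 on glucose in both strains (2.16 and 1.14). The value of 2.16, in DSM-3286, rests on 2 libraries at pH 5.5 with 2.11 and 6.24 CPM, or 27 and 89 reads. At pH 3.5 that strain held 18.8, 18.5 and 19.4 CPM.

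Over the 12 group means of log2 CPM, the profiles of the 6 genes were described by Pearson's r, without a test, since the groups share libraries, strains and conditions. The highest r between members was 0.68, between GLT1 and GZF1, and the lowest -0.41, between GDH1 and GZF1. Among 5647 expressed genes, GZF1 was most like YALI0F09163g (r = 0.967) and YALI0A20273g (0.959), and among genes with a symbol most like HOY1 (0.939). GLT1 was most like ZAP1 (0.939), then YALI0C19602g (0.919). GDH2 was most like YALI0E32769g (0.939) and YALI0A21076g (0.927), with MSN4 at 0.794 among named genes. GLN1 was most like YALI0D05687g (0.925) and YALI0D23386g (0.918), with PUT3 at 0.852. For GDH1 the closest were YALI0B03960g (0.897) and YALI0D04312g (0.89), with YJU6 at 0.671 among named genes. For AMD1 they were YALI0F17710g (0.86) and YALI0B20218g (0.839), with CAT8 at 0.777.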

How the data were processed

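The counts are read counts per gene, deposited by the authors as whole numbers for 7132 genes. A second deposited table holds log2 values, which matched log2(FPKM + 1) computed from the counts and effective lengths within 0.02 for 99.9% of values. Per the labels' protocols, libraries were strand-specific and poly(A)-selected. Per the submitters' processing notes, BWA 0.7.12-r1039, featureCounts 1.5.1 and edgeR were used. The genome build and the counting strand setting are not given in the sources used. Symbols were paired with locus tags by matching the values of the 2 deposited tables (71 of 71 symbols, largest gap 0.005). Of the gene IDs, 6682 matched the RefSeq table of assembly ASM176148v1, all 6 genes among them, and no sequence was used here.

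Counts were tested with edgeR 4.0.16 (quasi-likelihood, TMM scaling, filterByExpr, robust, 1 coefficient per group, all 35 libraries) with Benjamini-Hochberg adjustment over 6537 genes. The design left 23 residual degrees of freedom, and the biological coefficient of variation was 14.8%. Standard errors are the log2 fold change divided by the square root of F. The main edgeR fit was tried, for some of the comparisons, on simulated counts with known changes and no libraries that stand apart. The alternatives were not tried in this way. Alternatives were RLE scaling, no filter, DESeq2 1.42.0, limma 3.58.1 on the deposited log2 values, a fit limited to the groups compared, a replicate block, each compared library left out, and the 5 libraries that stand apart left out. One was added after seeing the data: that limited fit with the block. The labels tie no replicate number to a batch or day. Deviations of same-numbered libraries were correlated, every pair over 0.1, in 2 comparisons. These were phase in DSM-21175 on glucose and carbon source in DSM-21175 at 32 h and pH 5.5. In the first each library correlated best with its own number (r = 0.353, 0.344 and 0.446). In the second only replicate 3 did (0.351, against 0.165 and 0.195 for replicates 1 and 2), so its samples were not shown to be paired. Replicate 3 stands apart in all groups of these comparisons.

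The 6 genes are named in every comparison. The 9 further genes are those of a fixed list of symbols that occur in the log2 table, since the product words of that list matched no gene. Genes of like profile were the 2 with the highest r and the 1 with the highest r among named genes, at a mean log2 CPM of 3 or more. The members and lists were chosen with earlier results of these data known. The submitters describe the replicates as biological, without saying how far the cultures were separate, so p-values measure the spread between these samples.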

Additional observations from a re-analysis of the deposited data

Results flagged for a closer look

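Of the 54 tests of whether a change differed between strains or between phases, 21 passed an adjusted p of 0.05 (edgeR's quasi-likelihood test), 15 with a positive and 6 with a negative difference. The same tests called between 9.82% and 51.1% of all genes. Each is given as DSM-21175 minus DSM-3286 on the log2 scale unless stated otherwise.

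GDH2 differed in the most conditions after GLT1. Its phase change differed by -1.87 on glycerol and by -0.49 on glucose (adjusted p = 0.0428). The second call held in 3 of the 11 fits that left out a library, DSM-21175 growth replicates 1 and 2 and stationary replicate 3, and was lost in the other 8, at -0.53 to -0.34. It was also lost in a fit limited to the groups compared (adjusted p = 0.152). Its carbon-source change, as glycerol minus glucose, differed by 1.9 in growth phase and by 0.64 at pH 3.5 (adjusted p = 0.00861). In DSM-3286 this change was -1.84 in growth phase and -0.72 at 32 h and pH 5.5, lower on glycerol in both. It was thus smaller at 32 h (difference 1.12).

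GLT1 differed in 6 tests. Its phase change differed by -1.31 on glucose, its carbon-source change by 0.9 at 32 h and pH 5.5 and by 0.65 at pH 3.5, and its pH change by 0.82 on glycerol and 1.07 on glucose. Its carbon-source change in DSM-21175 differed between phases by 1.26, as 32 h minus growth phase. The value of 0.65 (adjusted p = 0.0248) was lost at pH 3.5 without DSM-3286 glycerol replicate 3, DSM-3286 glucose replicate 1, DSM-21175 glycerol replicate 2 or DSM-21175 glucose replicate 3 (0.51 to 0.63).

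GZF1 differed in its phase change by 3.59 on glycerol and 1.53 on glucose, in its carbon-source change in growth phase by -1.78, and between phases in DSM-21175 by 1.99. The last 3 share the DSM-21175 glucose growth libraries, and without replicate 1 of these they were 2.36, -0.95 and 1.16. In a fit limited to the groups compared the last was not called (adjusted p = 0.0848).

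GDH1 differed in its phase change on glycerol by 0.78, in its carbon-source change at pH 5.5 by 1.03, and between phases in DSM-21175 by 0.65. The last was lost without DSM-21175 glycerol growth replicate 2 (0.55; adjusted p = 0.0531) or glucose growth replicate 1 (0.38; adjusted p = 0.123), and in a fit limited to the groups compared (adjusted p = 0.149).

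GLN1 differed in its pH change on glycerol by -1.18 and in its carbon-source change at pH 3.5 by -0.73 (adjusted p = 0.044). The second call was lost in 9 of the 12 fits that left out a library (-0.77 to -0.61). It held without DSM-3286 glycerol replicate 2, DSM-21175 glycerol replicate 3 or DSM-21175 glucose replicate 2. AMD1 differed in its carbon-source change at pH 3.5 by 0.5 (adjusted p = 0.0278), which was lost without replicate 3 of either DSM-3286 group, DSM-21175 glycerol replicate 1 or 2, or DSM-21175 glucose replicate 3 (0.38 to 0.47).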

How the results depend on the processing

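No value of the 6 genes that was called changed direction under any alternative. Without the 5 libraries that stand apart, 15 pH tests passed in place of 8, and 32 differences of changes in place of 21, 11 gained and none lost. The other counts of calls stayed within 1.5 times. In fits limited to the groups compared, 23 of the 174 values gained a call and 12 lost it. Losses of this kind are named above more often than gains. Leaving out single libraries gave 14 to 17 phase calls, 7 to 8 and 7 to 9 carbon-source calls (growth and stationary), 6 to 9 pH calls, 15 to 18 strain calls and 18 to 23 differences. Of the 174 values on the 6 genes, 19 lost and 18 gained their call in at least 1 such fit. With the replicate block, the counts were 15, 8, 8, 8, 17 and 19, and 2 calls were lost: GDH2 in the strain difference of the phase change on glucose (-0.45; adjusted p = 0.0521) and GLN1 in that of the carbon-source change at pH 3.5 (-0.73; adjusted p = 0.0525). Of 56 correlations between same-numbered libraries 11 were over 0.1 (-0.493 to 0.446). In 20 of the 56 the library correlated best with its own number, out of the 2 or 3 libraries of the other group. The GLN1 call was also lost with RLE scaling (adjusted p = 0.0519), no filter (0.0512) and limma (0.0511), and the GDH2 call with no filter (0.058).

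Over all genes, fits without the libraries that stand apart called 1196 genes in place of 776 and 2449 in place of 1029 between carbon sources in DSM-21175 at pH 5.5 and 3.5. For strain by carbon source they called 1177, 1944 and 3088 in place of 642, 1263 and 1990, and for strain by pH on glucose 1767 in place of 1067. Fits limited to the groups compared called 87 and 437 between carbon sources in DSM-21175, and 180 at pH 5.5 with the replicate block. They called 928 in place of 1878 and 941 in place of 1783 with pH in DSM-21175, 639 in place of 1263 for strain by carbon source at pH 5.5, and 1280 in place of 1966 for carbon source by phase in DSM-21175. Single libraries moved the carbon-source count in DSM-21175 to 490 at pH 5.5 (glycerol replicate 1) and to 573, 453, 1580 and 541 at pH 3.5 (glycerol replicates 1, 2 and 3, glucose replicate 3). They moved the pH count on glucose to 1042 (DSM-21175 pH 3.5 replicate 3) and strain by pH on glucose to 683 (DSM-3286 pH 5.5 replicate 3). The cause was not tested.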
